A study of Mus musculus with 6 samples.

Results

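Cholesterol synthesis and sterol sensing were followed through 28 genes in mRNA of brain cells captured with magnetic beads by the O4 antigen, a surface sulfatide of late oligodendrocyte precursors and oligodendrocytes. The genes were taken by name, in pathway order, with earlier results of these data known. All 28 were in the table and passed the filter on low values (a mean of at least 3), among 18161 genes tested. Experimental autoimmune encephalomyelitis (EAE), a model of multiple sclerosis, was induced in mice of the strain labelled c56Bl/6j by immunisation with the peptide MOG 35-55 of a myelin protein, and controls of the same strain received ovalbumin (OVA). The cells were taken at the peak of disease and were not cultured. The 3 EAE samples are pools of 2 mice each, so that 6 mice stand behind them. Of the 3 OVA samples, replicate 2 is a pool of 2 mice and replicates 1 and 3 hold 1 mouse each. No age, sex or batch is given in the labels. Each value is a regularised logarithm (rlog) of scaled read counts on the log2 scale. On it a difference of 1 is a 2-fold difference in the regularised value. Folds given here are of these values and not of counts. Because counts are not given, sequencing depth is unknown.

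Cholesterol is made from acetyl-CoA by a long chain of enzymes, and it is a main lipid of myelin. The brain makes its own cholesterol, because lipoproteins of the blood do not cross the blood-brain barrier, and oligodendrocytes and astrocytes are its main producers. When sterols of the endoplasmic reticulum run low, the escort protein Scap carries the precursors of the transcription factors SREBP to the Golgi, where a pair of proteases frees them. They then enter the nucleus and bind sterol regulatory elements of the synthesis genes, commonly next to sites of the CCAAT-binding factor NF-Y. Insig proteins hold the complex of Scap and SREBP back when sterols are plentiful.

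The upstream sequences of a few of the genes show these elements. RefSeq start sites on GRCm38.p6 were found for 24 of the 28 genes, at 32 starts. Fdps, Fdft1, Sqle and Stard4 had none and were not searched. The 250 bases before each start were searched on both strands. The core TCACNCCA of the sterol regulatory element was found upstream of 3 genes, Hmgcs1, Msmo1 and Srebf2. That is 3 of 32 windows (9.38%), against 3.67% of the 32851 mouse upstream windows. Its longer form TCACNCCAC was found in Hmgcs1 (1 of 32 windows, 3.12%), against 1.05% of all windows. The 5 letters CCAAT were found in 20 of the 24 genes (21 of 32 windows, 65.6%), against 33.8% of all windows. The box GGGCGGG, bound by Sp1, was found in 14 genes (50% of their windows, against 23.4%). These motifs do not overlap each other, apart from the core within its longer form, and the shorter core, with other looser forms not given here, was tried after the longer form had been searched. A match is a description of letters and no measure of binding. The 3 windows with the core are printed with that of Tm7sf2, which differed most between the OVA samples. Each is read 5′ to 3′ in the direction of its gene and ends at the base before the start. Capitals mark TCACNCCA and CCAAT or their reverse complements. RefSeq starts can lie away from the gene limits given further on, which are those of GENCODE M21. The windows are chr13:119690101-119690350 (plus strand) for Hmgcs1, chr8:64733579-64733828 (minus strand) for Msmo1, chr15:82147019-82147268 (plus strand) for Srebf2 and chr19:6067851-6068100 (minus strand) for Tm7sf2.
Hmgcs1: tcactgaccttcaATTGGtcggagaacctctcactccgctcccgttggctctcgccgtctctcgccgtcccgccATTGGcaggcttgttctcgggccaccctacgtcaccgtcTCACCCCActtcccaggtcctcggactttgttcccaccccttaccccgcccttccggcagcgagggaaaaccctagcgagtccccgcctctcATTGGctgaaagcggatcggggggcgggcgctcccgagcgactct
Msmo1: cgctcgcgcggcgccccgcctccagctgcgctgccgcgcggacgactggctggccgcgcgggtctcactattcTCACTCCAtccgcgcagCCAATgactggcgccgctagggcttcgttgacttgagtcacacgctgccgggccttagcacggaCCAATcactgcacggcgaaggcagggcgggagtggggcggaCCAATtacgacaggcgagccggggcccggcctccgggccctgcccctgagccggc
Srebf2: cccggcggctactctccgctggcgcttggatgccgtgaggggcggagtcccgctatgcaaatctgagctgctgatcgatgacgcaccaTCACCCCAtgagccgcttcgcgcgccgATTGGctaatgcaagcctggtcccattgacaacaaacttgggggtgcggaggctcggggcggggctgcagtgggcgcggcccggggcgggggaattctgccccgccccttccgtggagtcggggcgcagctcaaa
Tm7sf2: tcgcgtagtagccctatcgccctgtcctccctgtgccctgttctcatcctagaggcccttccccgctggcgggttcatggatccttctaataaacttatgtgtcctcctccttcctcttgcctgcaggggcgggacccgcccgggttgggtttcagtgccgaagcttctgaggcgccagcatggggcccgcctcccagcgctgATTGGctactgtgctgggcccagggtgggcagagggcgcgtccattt
The core reads TCACCCCA in Hmgcs1 and Srebf2 and TCACTCCA in Msmo1. Msmo1 and Hmgcs1 hold 3 CCAAT matches each, while Srebf2 and Tm7sf2 hold 1 each.

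Between EAE and OVA, 0 of the 28 genes were called higher and 0 lower by limma at an adjusted p under 0.05. Among all 18161 genes, 1.72% were called higher and 0.666% lower. At an unadjusted p under 0.05 there were 3 of the 28 (10.7%, against 16.3% of all genes), namely Ebp, Pmvk and Msmo1. The same 3 genes were the ones whose groups did not overlap, a share of 10.7% against 22.8% of all genes. Of the 28 genes 14 lay above 0 (50%, against 49.3% of all genes) and 14 below. Their median difference was -0.0039 on the log2 scale, with a range from -0.30 for Tm7sf2 to 0.27 for Ebp, and the median of all genes was -0.0024. The 95% intervals of 26 genes stayed within 1.5-fold of the regularised values in either direction (92.9%, against 81.5% of all genes). The exceptions were Fdps, with an interval from -0.17 to 0.63, and Tm7sf2, with one from -0.74 to 0.14. These intervals rest on limma's pooled spread over 3 samples a group and are not adjusted for the number of genes. In a bulk sample, fewer cells of a type and less RNA per cell cannot be told apart.

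**Figure D1:**
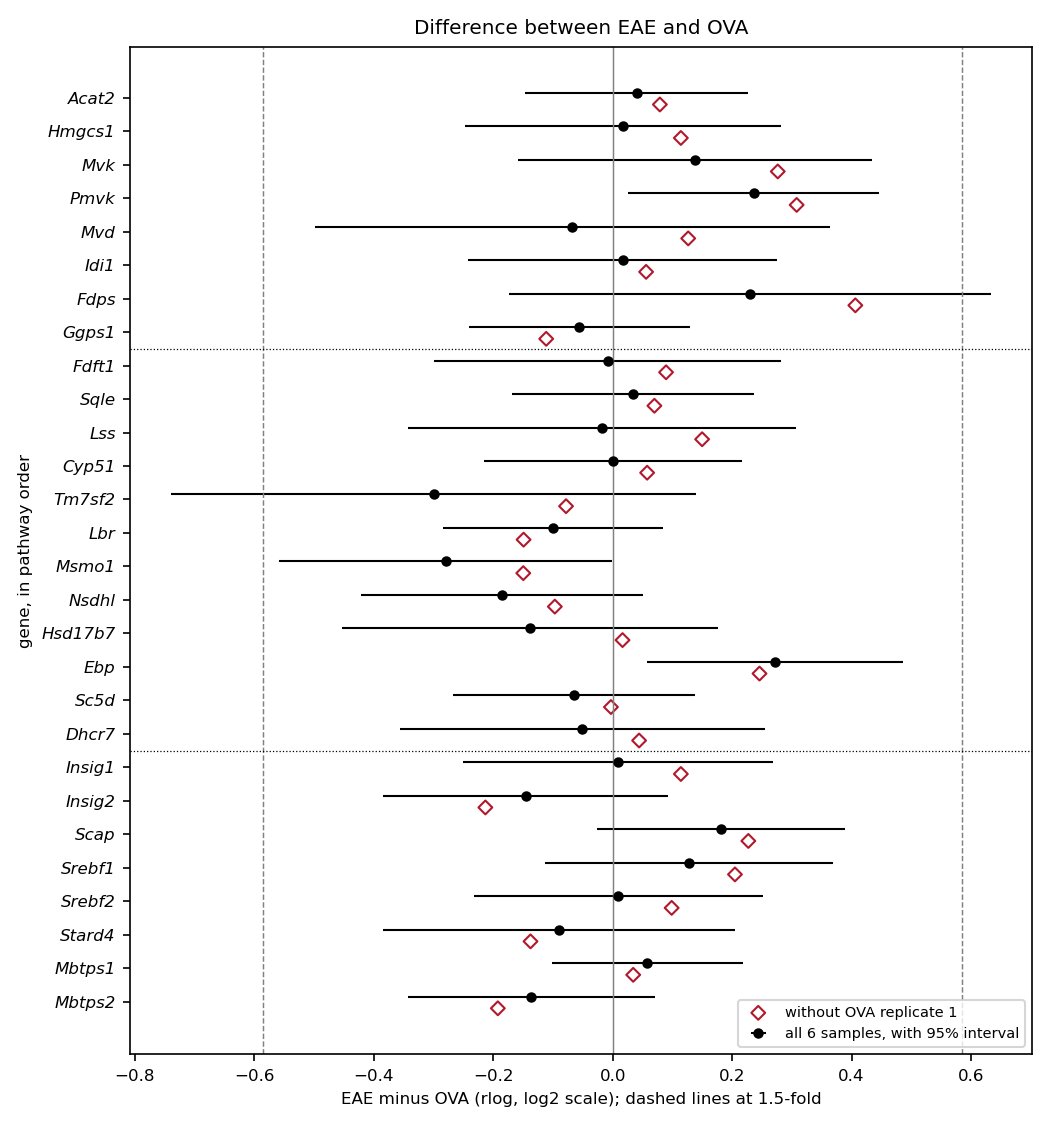
Difference between EAE and OVA for each of the 28 genes in pathway order (x axis, rlog difference on the log2 scale); black points and bars are the limma estimate and its 95% interval over all 6 samples, open diamonds the estimate without OVA replicate 1, and dotted lines part the pathway steps. Intervals of 26 genes stay between the dashed 1.5-fold lines, and the largest move on leaving out OVA replicate 1 is that of Tm7sf2, from -0.30 to -0.08.

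The first 8 genes lead from acetyl-CoA to the isoprenoid diphosphates. Their differences ran from -0.07 to 0.24 with a median of 0.03, and 6 lay above 0. Without OVA replicate 1 the median was 0.12, with 7 of the 8 above 0. Pmvk, phosphomevalonate kinase (ENSMUSG00000027952.16, chromosome 3, 89454541 to 89469013), stood at 10.30, 10.16 and 10.20 in EAE replicates 1 to 3 and at 10.13, 9.86 and 9.96 in OVA replicates 1 to 3. Every EAE pool was above every OVA sample, though the lowest EAE pool exceeded OVA replicate 1 by little. The difference was 0.24 ± 0.09 (SE), with an interval from 0.03 to 0.45 on the log2 scale, and its adjusted p was 0.25.

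Hmgcs1 (ENSMUSG00000093930.2, chromosome 13, 119690379 to 119708260) makes the substrate of the committed reductase step and is a classical SREBP target. It stood at 13.56, 13.34 and 13.46 in EAE and at 13.63, 13.39 and 13.29 in OVA. The EAE values all lay inside the range of the OVA values. The difference was 0.02 ± 0.11 (SE), with an interval from -0.25 to 0.28 and an adjusted p of 0.96. Mevalonate kinase, Mvk, stood at 9.72, 9.55 and 9.66 in EAE and at 9.78, 9.39 and 9.34 in OVA, again with EAE inside the OVA range. Mevalonate diphosphate decarboxylase, Mvd, had 9.74, 9.31 and 9.64 in EAE and 10.02, 9.51 and 9.36 in OVA. For both kinase and decarboxylase, OVA replicate 1 was the highest sample of all.

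Fdps, farnesyl diphosphate synthase, had 7.75, 7.66 and 7.77 in EAE, against 7.85, 7.49 and 7.15 in OVA. The EAE pools were close together (SD 0.06) and the OVA samples far apart (SD 0.35), and the difference of 0.23 ± 0.17 (SE) had an adjusted p of 0.55. Near-identical copies in the annotation make some of these values uncertain, since it is not given how reads that match several places were counted. The transcript of Fdps matched 4 processed pseudogenes, at 96.14% to 98.87% identity. Idi1, which isomerises isopentenyl diphosphate, matched the pseudogene Gm13502 without a mismatch over 684 bases. Acat2 matched its paralog Acat3 at 97.7% over 1477 bases, Fdft1 the pseudogene Gm6781 at 97.4% and Ggps1 the pseudogene Gm5630 at 97.2%. Stretches of sequence were also shared by Acat2 and Tcp1, Fdft1 and Ctsb, Fdps and Gm43738, Idi1 and both Gm35570 and Gm48574, Lbr and Dnah14, and Hmgcs1 and its antisense RNA Gm48342. Whether counting used strand is not given, so all 7 of these genes are uncertain to that extent. Idi1 differed by 0.02 and Acat2, the acetyl-CoA acetyltransferase at the head of the pathway, by 0.04. Ggps1, which makes geranylgeranyl diphosphate for protein prenylation in place of sterols, differed by -0.06 ± 0.08 (SE), and OVA replicate 1 lay low in it, at 10.19 against 10.37 and 10.34.

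The next 12 genes lead from farnesyl diphosphate through squalene and lanosterol to the last sterol steps. Of them 9 lay below 0 and 3 above, with a median of -0.06. Without OVA replicate 1 the median turned to 0.03, with 7 of the 12 above 0. Msmo1, the methylsterol monooxygenase that starts removal of the C4 methyl groups (ENSMUSG00000031604.10, chromosome 8, 64718139 to 64733792), had 12.38, 12.23 and 12.34 in EAE. In OVA it had 12.85, 12.50 and 12.44. Every EAE pool was below every OVA sample, with a gap of little between the nearest. The difference of -0.28 ± 0.12 (SE) corresponds to 1.21-fold lower in EAE, with an interval that ended just below 0 (-0.00036) and an adjusted p of 0.31. Without OVA replicate 1 it was -0.15 ± 0.08 (SE; adjusted p = 0.36).

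The partners of Msmo1 in the same demethylation are Nsdhl, a dehydrogenase, and Hsd17b7, a ketoreductase. Nsdhl had 10.17, 10.01 and 10.10 in EAE and 10.46, 10.27 and 10.11 in OVA. Hsd17b7 had 9.87, 9.79 and 9.79 in EAE and 10.27, 9.87 and 9.73 in OVA. In both, OVA replicate 1 was highest and OVA replicate 3 was near the EAE pools. Their differences were -0.19 ± 0.10 and -0.14 ± 0.13 (SE; adjusted p = 0.41 and 0.66). That of Hsd17b7 was 0.02 without OVA replicate 1.

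Tm7sf2 and Lbr both encode a sterol C14 reductase, and Lbr also anchors chromatin at the nuclear envelope. Tm7sf2 (ENSMUSG00000024799.16, chromosome 19, 6062821 to 6068373) had 9.49, 9.37 and 9.46 in EAE and 10.18, 9.67 and 9.37 in OVA. The OVA values spread over more than the whole EAE range. The difference was -0.30 ± 0.19 (SE; adjusted p = 0.48), and -0.08 ± 0.11 (SE; adjusted p = 0.74) without OVA replicate 1. Lbr ran the other way in the OVA samples, with 11.00, 11.08 and 11.22, and had 10.94, 11.03 and 11.03 in EAE. The within-sample difference between both genes was -1.56 ± 0.11 in EAE and -1.36 ± 0.52 in OVA (SD, n = 3; exact permutation test, two-sided, p = 0.7).

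Ebp, the sterol isomerase that shifts the double bond from the C8 position (ENSMUSG00000031168.14, chromosome X, 8185329 to 8193512), had the largest positive difference. It stood at 10.54, 10.33 and 10.41 in EAE and at 10.10, 10.29 and 10.06 in OVA. The groups did not overlap, but EAE replicate 2 and OVA replicate 2 were close. The difference was 0.27 ± 0.09 (SE), or 1.21-fold with an interval from 1.04 to 1.40, at an adjusted p of 0.20. It was 0.25 without OVA replicate 1 and between 0.22 and 0.34 with any single sample left out. Ebp was also 1 of the few synthesis genes in which OVA replicate 1 did not exceed the mean of the other OVA samples (-0.08). Ebp is X-linked, and the groups also differed in the sex-linked transcripts given further on. What goes with sex and with treatment cannot be told apart for it.

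Among the other sterol steps, the differences were small against their errors. Squalene synthase, Fdft1, had 11.69, 11.46 and 11.61 in EAE and 11.79, 11.65 and 11.34 in OVA, a difference of -0.0079 ± 0.12 (SE). Squalene epoxidase, Sqle, a rate-limiting oxidation, had 11.88, 11.76 and 11.72 in EAE and 11.83, 11.82 and 11.61 in OVA, a difference of 0.03 ± 0.09 (SE). In both, OVA replicate 3 was the lowest sample. Lanosterol synthase, Lss, had 11.73, 11.61 and 11.66 in EAE and 12.02, 11.55 and 11.49 in OVA, so that OVA replicate 1 alone stood apart. Lanosterol demethylase, Cyp51, differed by 0.000081 ± 0.09 (SE), with an interval from -0.22 to 0.22. The late desaturase Sc5d and the reductase Dhcr7, which completes cholesterol, differed by -0.06 ± 0.09 and -0.05 ± 0.13 (SE). Adjusted p values of these 6 genes lay between 0.76 for Sc5d and 1.00 for Cyp51.

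The last 8 genes sense sterols, process SREBP or carry sterols between membranes, and 5 lay above 0 and 3 below, with a median of 0.0090. Without OVA replicate 1 the median was 0.07, with 5 above 0 again. Srebf2 (ENSMUSG00000022463.8, chromosome 15, 82147181 to 82205379), which encodes the SREBP that drives cholesterol synthesis, had 12.96, 12.85 and 13.06 in EAE and 13.13, 12.89 and 12.83 in OVA. Its EAE values lay inside the OVA range, and the difference was 0.0096 ± 0.10 (SE; interval from -0.23 to 0.25). Srebf1 (ENSMUSG00000020538.15, chromosome 11, 60199089 to 60222581), whose protein drives mainly fatty acid synthesis, had 12.97, 12.81 and 13.06 in EAE and 12.97, 12.69 and 12.79 in OVA. Its difference was 0.13 ± 0.10 (SE; adjusted p = 0.59). The rlog value of Srebf1 less that of Srebf2 was 0.0011, -0.04 and 0.00064 in EAE and -0.16, -0.19 and -0.05 in OVA. These values did not overlap, and the exact permutation test gave p = 0.1, the smallest it can give for 3 samples against 3 (0.4 adjusted over the 4 pairs compared).

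Scap, the sterol-sensing escort, had 11.98, 11.84 and 12.03 in EAE and 11.86, 11.81 and 11.64 in OVA. Only EAE replicate 2 overlapped with the OVA samples, and the difference was 0.18 ± 0.09 (SE; adjusted p = 0.37). Insig1, which is itself an SREBP target, had 12.09, 11.99 and 12.22 in EAE and 12.30, 12.01 and 11.97 in OVA. Its difference was 0.0083 ± 0.11 (SE; interval from -0.25 to 0.27). Insig2 had 9.67, 9.70 and 9.80 in EAE and 9.74, 9.81 and 10.07 in OVA, a difference of -0.15 ± 0.10 (SE; adjusted p = 0.52). In OVA the order of the samples was opposite in both Insig genes, with replicate 1 highest for Insig1 and lowest for Insig2. The within-sample difference Insig1 less Insig2 was 2.38 ± 0.08 in EAE and 2.22 ± 0.33 in OVA (SD, n = 3; exact permutation test p = 0.6).

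The proteases that release SREBP in the Golgi are encoded by Mbtps1 and Mbtps2. Mbtps1 had 12.13, 12.05 and 12.02 in EAE and 11.96, 12.05 and 12.01 in OVA. Its difference of 0.06 ± 0.07 had the smallest SE of the 28 genes. Mbtps2 had 9.57, 9.52 and 9.71 in EAE and 9.62, 9.78 and 9.81 in OVA, a difference of -0.14 ± 0.09 (SE; adjusted p = 0.49). Their within-sample difference was 2.46 ± 0.13 in EAE and 2.27 ± 0.07 in OVA (SD, n = 3; exact permutation test p = 0.2). Stard4, a soluble carrier that moves cholesterol to the endoplasmic reticulum, had 10.02, 10.17 and 10.11 in EAE and 10.09, 10.00 and 10.47 in OVA. OVA replicate 3 alone was high, and the difference was -0.09 ± 0.13 (SE).

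Per kilobase of annotated exon, the OVA level was highest for Hmgcs1 (11.24 on the log2 scale), followed by Insig1 (10.46), Srebf1 (10.32) and Srebf2 (10.10). Their SDs over the 3 OVA samples were 0.18, 0.18, 0.14 and 0.16, so that Hmgcs1 stood clear of Insig1, while Insig1 and Srebf1 were apart by no more than their spread. The lowest per kilobase were Fdps (5.42) and Mbtps2 (6.40). Both Fdps and Hmgcs1 share sequence with other annotated genes, so their levels are uncertain to that extent.

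The larger contrast among these genes lay inside the OVA group. OVA replicate 1, from 1 mouse, was at the top of the 6 samples for 16 of the 28 genes (57.1%, against 26.8% of all tested genes). OVA replicate 3, also from 1 mouse, had the lowest value for 15 (53.6%, against 25.2%). The 3 EAE pools lay wholly inside the range of the OVA samples for 13 genes (46.4%, against 30.9% of all genes). For 25 genes the SD was larger in OVA than in EAE (89.3%, against 76.1%), and the EAE samples are pools of 2 mice while a pair of OVA samples are not pools. The part of pooling in this was not tested.

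**Figure D2:**
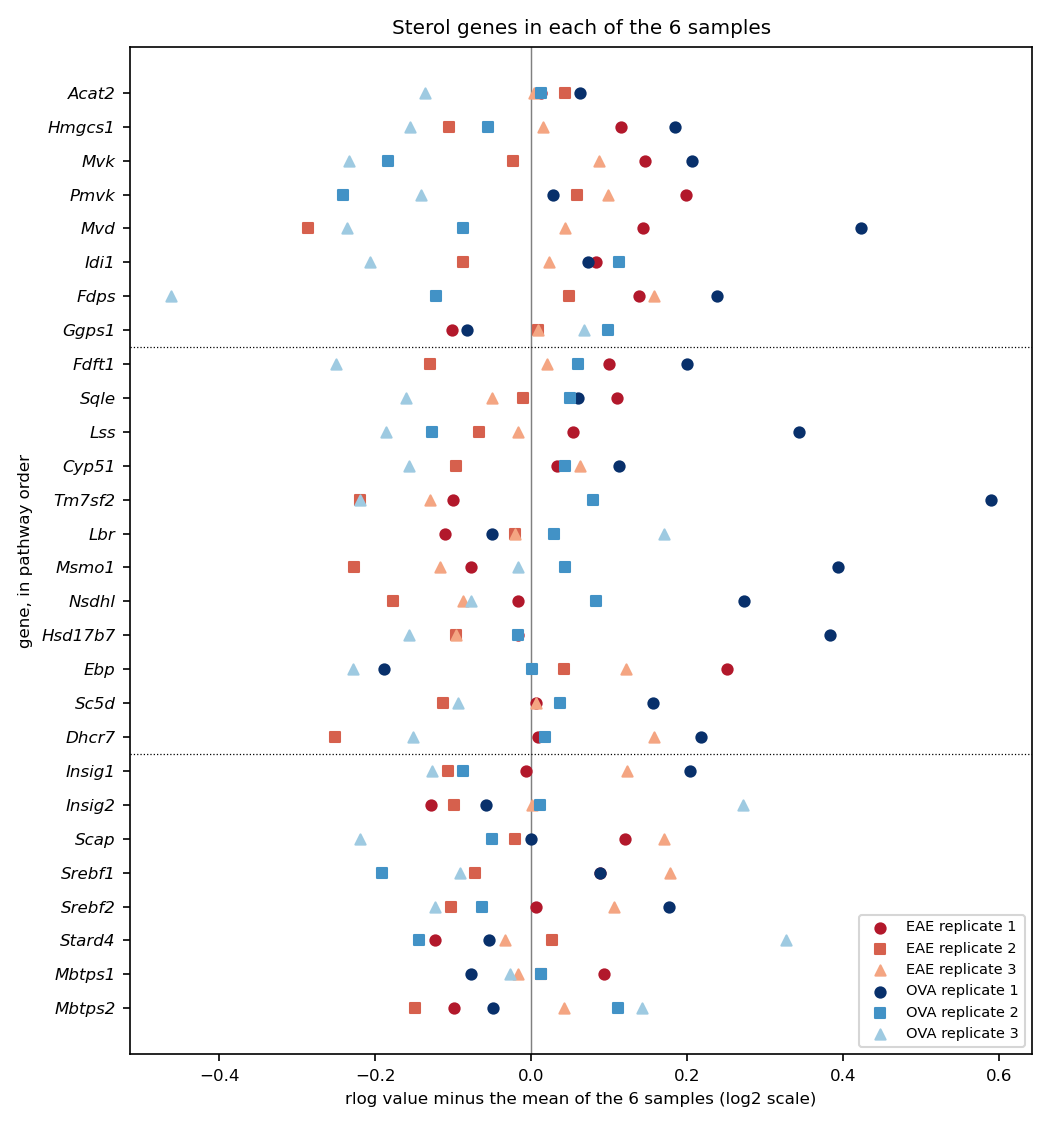
Value of each of the 28 genes in each sample, as rlog value less the mean of the 6 samples (x axis, log2 scale), in pathway order from top to bottom; red symbols are the 3 EAE pools, blue symbols the 3 OVA samples. OVA replicate 1 (dark blue circles) is the highest sample for 16 genes and OVA replicate 3 (light blue triangles) the lowest for 15, with the EAE pools mostly between them.

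**Figure D3:**
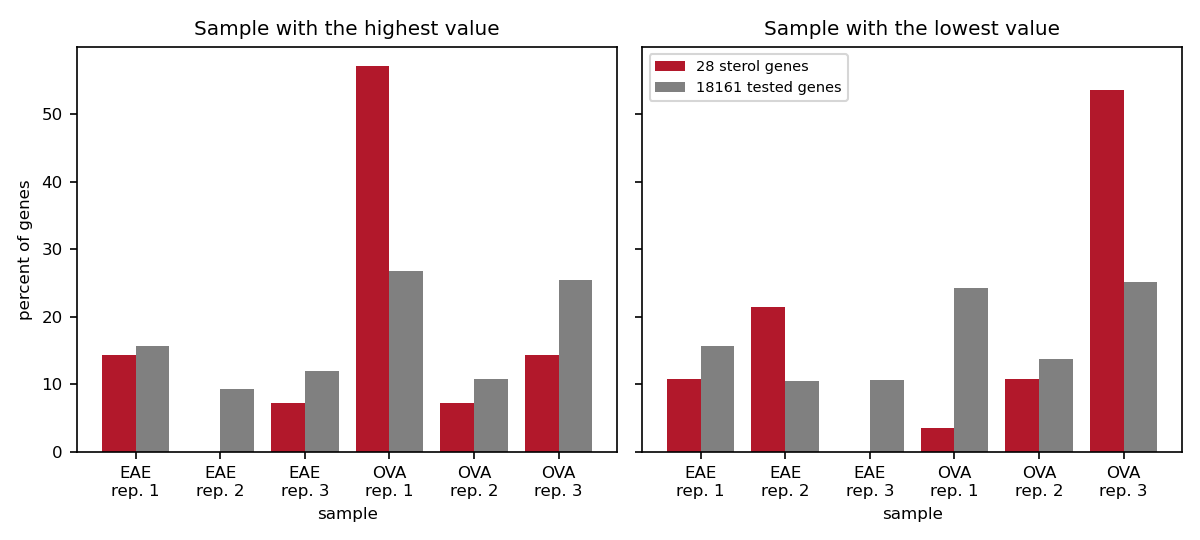
Percent of genes (y axis) that have their highest (left) or lowest (right) value in each sample (x axis), for the 28 sterol genes (red) and all 18161 tested genes (grey). The red bar is at 57.1% for the highest value in OVA replicate 1 and at 53.6% for the lowest value in OVA replicate 3, where the grey bars are at 26.8% and 25.2%.

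OVA replicate 1 exceeded the mean of the other OVA samples in 21 of the 28 genes (75%, against 50.3% of all genes), by a median of 0.22 on the log2 scale, where the median of all genes was 0.0015. The excess was largest for Tm7sf2 (0.67), Mvd (0.58), Fdps (0.53), Lss (0.50), Hsd17b7 (0.47), Mvk (0.42) and Msmo1 (0.39). By step it had a median of 0.25 in the first 8 genes, 0.28 in the 12 squalene and sterol genes and 0.03 in the 8 sensing genes. Genes that did not share it were Ggps1, Lbr, Ebp, Insig2, Stard4, Mbtps1 and Mbtps2. Ggps1 and Lbr have roles outside sterol synthesis, in prenylation and at the nuclear envelope, but Ebp is a sterol step. The part of gene function in this was not tested. The excess was not particular to sterol genes. It was found in 9 of 10 astrocyte, 8 of 8 microglia and 12 of 14 mature oligodendrocyte markers (medians 0.36, 0.36 and 0.08). Precursor markers had it in 7 of 8 (median 0.15). Of endothelial, of pericyte and of monocyte and macrophage markers 0 of 8 each had it. For T cells it was 2 of 8 and for neurons 5 of 8. The part of cell types in the excess was not tested. With 1 mouse behind OVA replicate 1, no spread can be given for this sample.

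Without OVA replicate 1, 19 of the 28 genes lay above 0 (67.9%, against 50.9% of all genes) and the median difference was 0.06. Again 0 genes were called higher and 0 lower by limma (0.545% and 0.182% of all genes), and 5 had an unadjusted p under 0.05, namely Mvk, Pmvk, Fdps, Ebp and Scap (17.9%, against 19.0% of all genes). Fdps then differed by 0.41 ± 0.13, Pmvk by 0.31 ± 0.08 and Mvk by 0.28 ± 0.08 (SE; adjusted p = 0.18, 0.13 and 0.16). Hsd17b7, Mvd, Lss, Fdft1 and Dhcr7 changed from a negative to a positive sign, at 0.02 to 0.15. Without OVA replicate 3 the balance tipped the other way, with 8 genes above 0 (28.6%, against 49.1% of all genes) and a median of -0.05. The calls were 0 in each direction there too, while 4.68% of all genes were called higher and 1.91% lower. At an unadjusted p under 0.05 there were 4 genes (14.3%, against 23.3% of all genes), namely Tm7sf2, Msmo1, Nsdhl and Ebp. Tm7sf2 differed by -0.49 in that setting (adjusted p = 0.092). Calls appeared under 1 setting, limma's array quality weights, which gave nearly all weight within OVA to replicate 2, the pool. There 3 genes were called higher (Mvk at 0.23, Pmvk at 0.34 and Srebf1 at 0.22) and 3 lower (Msmo1 at -0.20, Nsdhl at -0.19 and Mbtps2 at -0.19), which is 10.7% each, against 15.7% and 12.3% of all genes. At an unadjusted p under 0.05 there were 10 of the 28 (35.7%, against 41.7% of all genes).

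Genes that work beside the pathway gave few calls, where 1.72% of all genes were called higher and 0.666% lower. Of 7 electron donors and partners of sterol oxidation, 16 genes of the non-sterol isoprenoid branch and 8 of the degradation of sterol enzymes in the endoplasmic reticulum, limma called 0. Their medians were -0.02, -0.02 and -0.06, and 0, 1 and 1 of them had an unadjusted p under 0.05, against 16.3% of all genes. The nearest to a call in the degradation list was March6, an E3 ubiquitin ligase that acts on Sqle, with 11.55, 11.61 and 11.67 in EAE and 11.79, 11.76 and 12.03 in OVA (difference -0.25 ± 0.09, SE; adjusted p = 0.23). In the isoprenoid branch it was Srd5a3, a reductase of dolichol synthesis, at 0.19 ± 0.07 (SE; adjusted p = 0.27).

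Of 12 fatty acid genes that SREBP also drives, 0 were called, at a median of 0.05. The nearest were Fads2, a desaturase of polyunsaturated fatty acids, at -0.35 ± 0.07, and Gpam, the acyltransferase that starts glycerolipid synthesis, at -0.61 ± 0.13 (SE; adjusted p = 0.055 and 0.069). In neither did the groups overlap. OVA replicate 1 exceeded the mean of the other OVA samples in 11 of the 12, by a median of 0.23, as it did in the sterol genes. It did so in 2 of 7 electron donors and partners, 4 of 16 isoprenoid genes and 2 of 8 degradation genes. Their medians were -0.21, -0.11 and -0.097. In the oxysterol and LXR list that follows it did so in 8 of 12 (median 0.13). Of 12 genes of oxysterol synthesis and the oxysterol receptor LXR, 1 passed the test. Cyp7b1, the hydroxylase that clears oxysterols, stood at 7.56, 7.42 and 7.58 in EAE and at 8.35, 8.10 and 8.18 in OVA. It fell by 0.69 ± 0.11 (SE) on the log2 scale, 1.61-fold, with an adjusted p of 0.023.

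Cell type markers also differed between the samples. All 14 markers of mature oligodendrocytes were well above 0 in each sample, with Mbp at 17.65, 17.70 and 17.73 in EAE and 17.25, 17.56 and 16.87 in OVA. Their summed level, on the log2 scale, was 20.53 to 20.63 in EAE and 20.11 to 20.55 in OVA, lowest in OVA replicate 3, and 0 of 14 passed the test. Of these markers 13 lay above 0 and 1 below, with a median difference of 0.23. Markers of astrocytes, the other cell type rich in these enzymes, had a summed level of 16.26 to 16.59 in EAE and 16.98 to 17.38 in OVA, highest in OVA replicate 1. Of these 10 markers 5 fell and 1 rose, with Slc4a4 at -1.14 ± 0.14 and Gfap at 1.35 ± 0.11 (SE; adjusted p = 0.014 and 0.0045). The endothelial markers had a summed level of 15.47 to 16.03 in EAE and 15.95 to 16.66 in OVA, highest in OVA replicate 3, with 0 of 8 called. All 8 lay below 0, with a median difference of -0.56. Of 8 markers each, 3 of monocytes and macrophages and 6 of T cells rose, 2 of microglia fell, and 0 of pericytes and 0 of neurons were called. Among all tested genes 1.72% were called higher and 0.666% lower. The 8 pericyte markers all lay below 0, with a median difference of -0.38. Of the 8 markers of oligodendrocyte precursors 6 lay above 0, with a median of 0.36, and the 1 that was called, Ptprz1, ran against them at -0.63 ± 0.12 (SE; adjusted p = 0.049). Pdgfra, their defining receptor, differed by 0.38 ± 0.13 (SE; adjusted p = 0.20). None of the markers in these lists was listed at 0. The part of these cell types in the sterol gene values was not tested.

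**Figure D4:**
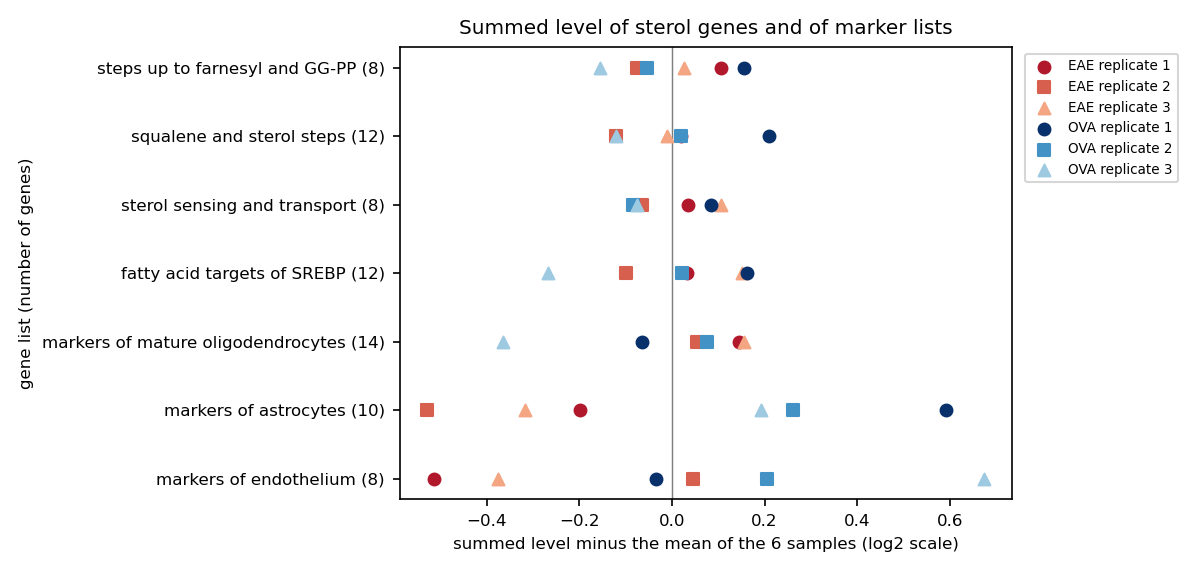
Summed level of each gene list in each sample, as log2 of the sum of 2 to the power of the rlog values, less the mean of the 6 samples (x axis), with the number of genes in brackets; red symbols are EAE pools and blue symbols OVA samples. OVA replicate 1 is high for the squalene and sterol genes and for astrocyte markers, and OVA replicate 3 is low for mature oligodendrocyte markers and high for endothelial ones.

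Set against the mean of the mature oligodendrocyte markers in the same sample, 1 of the 28 genes, Ebp, lay above 0, and the median difference was -0.27. That scaling moves the median of all genes by -0.26, and 9.61% of all genes then lie above 0. No sterol gene passed the test in it, where 0.562% of all genes were called higher and 1.38% lower.

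Xist, which is transcribed from an inactive X chromosome, stood at 13.50, 13.55 and 14.16 in EAE and at 7.39, 7.63 and 7.62 in OVA. The Y-linked Ddx3y stood at 10.18, 10.17 and 9.44 in EAE and at 11.46, 11.38 and 11.29 in OVA. The X-linked genes here are Ebp, Nsdhl and Mbtps2, of which Ebp lay above 0 and the others below. Both transcripts separated the groups without overlap. Each EAE pool had both at high values, as pools of female and male mice would. The OVA samples had high Ddx3y and much lower Xist, as males would. The sex of the mice is not in the labels. What goes with these transcripts and the treatment cannot be told apart in these samples.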

How the data were processed

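Polyadenylated RNA was sequenced with the TruSeq Stranded mRNA kit, per the labels' protocols. Build GRCm38 and the tools DESeq2 1.24.0, Subread 1.6.1, STAR 2.6.1c, cutadapt 1.18 and bcl2fastq 2.17 are listed, with no roles, per the submitters' processing notes. The authors deposited 1 table of log2 values (rlog, by its name) per gene and sample. rlog settings and the annotation counted are not given in the sources used here, and no depth or counting interval can be stated. Of 55298 identifiers 55117 (99.7%) matched a symbol, with positions from GENCODE M21, 1-based. Genes with a mean of at least 3 were tested by limma 3.58.1 (R 4.3.3, intensity trend, two-sided, Benjamini-Hochberg over 18161 genes, threshold 0.05). The fit was first tested on simulated data, where it called 28% of genes shifted by 0.5 and 86% of those shifted by 1. Intervals use limma's moderated SE. Copies are transcripts of other genes aligned at 95% identity over at least 300 bases. Nothing says that samples of a group were prepared independently beyond their mice. A pool averages its mice, so p-values do not measure the spread between single mice. Named genes are all 28 and, from each other list, at most 2 called genes in each direction or, with none called, 2 of smallest p, not all of which are printed, and the first of each marker list, likewise. Members and lists were chosen with earlier results of these data known. The comparison without OVA replicate 1 was set along with the members. Of the listed genes 1, Faxdc2, was not matched. Alternatives were other filters, scalings, trend and weights, and leaving out each sample.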

Additional observations from a re-analysis of the deposited data

How the results depend on the processing

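The count of sterol genes called by limma, 0 higher and 0 lower, held under 12 of 13 alternatives, and ranged from 0 to 0 with any single sample left out. With array quality weights 3 were called higher (Mvk, Pmvk and Srebf1) and 3 lower (Msmo1, Nsdhl and Mbtps2), while 15.7% and 12.3% of all genes were called in the same fit. Its weights were 8.85 for OVA replicate 2 and 0.275 and 0.222 for OVA replicates 1 and 3, so that the OVA mean rests largely on 1 sample, and the estimate of the weights stopped before it converged. The median difference ranged from -0.05 to 0.06 with 1 sample left out and was -0.27 relative to mature oligodendrocyte markers.

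Directions held under all 13 alternatives for 9 genes and turned under at least 1 for 19, none of them called in the main result. The other filters and the fit without intensity trend leave each difference as it is, so they could not turn a sign. Median centring gave -0.0057 for Hmgcs1, -0.0065 for Idi1, -0.023 for Cyp51, -0.015 for Insig1 and -0.013 for Srebf2. Quantile normalization gave -0.013 for Idi1, 0.0024 for Fdft1, -0.0012 for Cyp51 and -0.0050 for Srebf2. Array weights gave 0.014 for Mvd, -0.10 for Idi1, -0.029 for Sqle, 0.10 for Lss, -0.050 for Cyp51 and 0.089 for Stard4. Relative to oligodendrocyte markers, values were -0.22 for Acat2, -0.24 for Hmgcs1, -0.13 for Mvk, -0.026 for Pmvk, -0.25 for Idi1, -0.032 for Fdps, -0.23 for Sqle, -0.26 for Cyp51, -0.25 for Insig1, -0.081 for Scap, -0.13 for Srebf1, -0.25 for Srebf2 and -0.20 for Mbtps1. With 1 sample left out, the signs that turned had ranges of -0.017 to 0.079 (Acat2), -0.057 to 0.11 (Hmgcs1), -0.20 to 0.13 (Mvd), -0.083 to 0.077 (Idi1), -0.13 to 0.089 (Fdft1), -0.037 to 0.070 (Sqle), -0.12 to 0.15 (Lss), -0.077 to 0.058 (Cyp51), -0.25 to 0.017 (Hsd17b7), -0.14 to 0.060 (Dhcr7), -0.054 to 0.11 (Insig1), -0.048 to 0.099 (Srebf2) and -0.18 to 0.052 (Stard4). Median centring and the scaling to oligodendrocyte markers move every gene by the same amount, -0.023 and -0.26. Positive differences smaller than that had to turn there. For the other settings the cause was not tested.

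No paired analysis was possible because replicates were numbered by accession order, which pairs no mice. The depth of the samples is unknown.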
